A study of Homo sapiens with 16 samples.

Results

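The MSK and RSK kinases are the products of 6 genes, RPS6KA1 to RPS6KA6, and the data set holds a count for each of them in every library. The genes were taken by symbol as the RPS6KA family, which is 6 of the 28374 genes in the table. All 6 passed the filter on low counts and were among the 18575 genes tested. Total RNA was depleted of ribosomal RNA, made into strand-specific libraries and sequenced from serum-starved cultures of CCD-1070Sk, a fibroblast line from normal human skin.

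The groups were TPA+H89 (n = 2), TPA (n = 2), EGF+H89 (n = 2), EGF (n = 3), H89 (n = 3) and control (n = 3). TPA, a phorbol ester that activates protein kinase C, was given at 100 nM for 1 h, and EGF, epidermal growth factor, at 30 ng/ml for 1 h. H89, a kinase inhibitor, was given at 10 µM as a 30 min pretreatment, alone at a recorded time of 0 h or before 1 h of mitogen, so that the time spent in H89 may differ between these groups. Control cells received no treatment and were taken at 0 h, and no control was recorded at 1 h. Of 16 deposited samples, the controls numbered 3 and 4 held equal counts at every gene and were counted once, which left 15 libraries. Nothing in the labels ties the libraries of a group to separate cultures, and each p-value therefore reflects the spread among these libraries, which may be technical.

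RSKs and MSKs are serine/threonine kinases with 2 kinase domains in 1 chain, an arrangement that sets them apart from other ribosomal S6 kinases. RSKs are switched on by ERK together with PDK1 and act on translation factors, survival factors and transcription factors. MSKs are nuclear kinases switched on by ERK or p38, and they phosphorylate histone H3 and the transcription factor CREB at genes that answer mitogens and stress. H89 blocks MSK1 and also protein kinase A, RSKs and other kinases at their ATP site, so it acts on the proteins. The measurements here are RNA levels of the genes that encode those proteins, not kinase activity.

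RPS6KA4 encodes MSK2, RPS6KA5 encodes MSK1 and RPS6KA6 encodes RSK4. The stretches just before their start sites are shown because RPS6KA4 and RPS6KA5 had the largest values of the family in TPA and in H89 against control, and RPS6KA6 lay apart between EGF and control. They are RefSeq sequences of 250 bases on GRCh38.p14, each ending at the base before an annotated start and written 5′ to 3′ on the gene's own strand. RPS6KA4 lies at chr11:64358912-64359161 on the plus strand, RPS6KA5 at chr14:91060642-91060891 on the minus strand, and RPS6KA6 at chrX:84188200-84188449 on the minus strand. Capitals mark the half-site of the cAMP response element, TGACG or its reverse complement CGTCA, to which CREB can bind.
RPS6KA4: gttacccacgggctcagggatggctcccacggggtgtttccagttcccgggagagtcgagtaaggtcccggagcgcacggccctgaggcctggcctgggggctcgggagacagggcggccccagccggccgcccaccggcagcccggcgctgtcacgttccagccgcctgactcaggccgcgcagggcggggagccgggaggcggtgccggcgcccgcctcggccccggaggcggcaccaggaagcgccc
RPS6KA5: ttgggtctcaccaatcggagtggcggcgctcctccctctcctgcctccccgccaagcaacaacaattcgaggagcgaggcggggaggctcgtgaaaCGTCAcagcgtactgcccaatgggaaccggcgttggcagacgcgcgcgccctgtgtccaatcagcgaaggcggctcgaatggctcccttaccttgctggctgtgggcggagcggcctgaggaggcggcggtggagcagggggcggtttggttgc
RPS6KA6: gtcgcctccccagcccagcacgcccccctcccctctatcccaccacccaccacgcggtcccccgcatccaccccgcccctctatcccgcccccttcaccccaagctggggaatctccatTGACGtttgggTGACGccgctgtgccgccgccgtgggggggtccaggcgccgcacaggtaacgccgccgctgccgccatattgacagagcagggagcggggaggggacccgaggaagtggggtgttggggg

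The RPS6KA4 stretch held no half-site, the RPS6KA5 stretch held 1 and the RPS6KA6 stretch held 2. A second RPS6KA5 window, at chr14:91060125-91060374 and not shown, held 0. Of the genes not shown, RPS6KA1 had 1 in its window at chr1:26529511-26529760 and 0 in a second at chr1:26542862-26543111. RPS6KA2 and RPS6KA3 had 0 in every window. A half-site on either strand was present in 21.2% of the 35116 promoters in the table. The full element TGACGTCA, present in 1.65% of all promoters, was found in none of the 11 windows of the 6 genes. The AP-1 motif TGANTCA, present in 6.57% of promoters, was found once in the RPS6KA4 stretch. GC boxes, GGGCGG, were present in 42.6% of promoters and numbered 3, 2 and 2 in the stretches of RPS6KA4, RPS6KA5 and RPS6KA6. GC content was 76.8% in the RPS6KA4 stretch, 66.4% in the RPS6KA5 stretch and 71.6% in the RPS6KA6 stretch, above the median of 58.0% over all promoters. A match is a description of these letters and not evidence of binding.

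The depth of the 15 libraries ran from 7527026 total counts in TPA+H89 1 to 130075914 in TPA 2. The libraries fell into 3 sets by features of the counts. In set A, control 1 and EGF 1, genes at a count of 1 outnumbered those at 2. Set B, with control 2, EGF 2 and the first library of each other group, had 11.7% to 30.4% of counts at the ribosomal RNA genes RNR1 and RNR2. Set C, the remaining libraries, had none there. Within set B the share was 11.7% in TPA 1 and 12.0% in TPA+H89 1, and 24.8% to 30.4% in its other libraries. TPA treatment and this split cannot be told apart within set B, also in a model with a term for library set. The part of the split in the set B differences was not tested. The labels name 3 sequencing platforms without tying them to samples. Of 13 fibroblast markers, 13 reached at least 1 CPM (counts scaled to a common library total) in every library, and their summed level ran from 29906 to 59606 CPM. Of 6 keratinocyte markers, 4 stayed under 1 CPM in every library, with KRT5 and KRT14 at or under 0.223 CPM, and the summed level ran from 6.95 to 47.8 CPM. KRT10 gave most of that sum, with 9.05 and 47.7 CPM in TPA cells, against 6.04, 8.58 and 10.51 CPM in control cells, and its part in the TPA values of the family was not tested.

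The 6 genes differed widely in level, with RSK3, RSK2 and MSK2 abundant, RSK4 intermediate and RSK1 and MSK1 low in these fibroblasts. In RNA from a whole culture, fewer expressing cells and less RNA per cell cannot be told apart. To compare genes, CPM values with TMM scaling (trimmed mean of M values) were divided by coding length, taken from the GENCODE v29 annotation of GRCh38. The median over the 15 libraries was 41.5 CPM per coding kb for RPS6KA2 (RSK3), 26.6 for RPS6KA3 (RSK2), 21.7 for RPS6KA4 (MSK2) and 5.66 for RPS6KA6 (RSK4). It was 0.792 CPM per coding kb for RPS6KA1 (RSK1) and 0.686 for RPS6KA5 (MSK1). RPS6KA4 stood above RPS6KA6 in 15 of 15 libraries and RPS6KA6 above RPS6KA1 in 15 of 15. Neighbours within the upper and the lower group were less clearly ordered: RPS6KA2 exceeded RPS6KA3 in 13 of 15 libraries, RPS6KA3 exceeded RPS6KA4 in 12 of 15, and RPS6KA1 exceeded RPS6KA5 in 10 of 15.

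The order near the top depended on the length used. Per kb of all annotated exons, RPS6KA4 came first with a median of 15.97 CPM per kb and RPS6KA2 second with 14.2, RPS6KA4 being higher in 10 of 15 libraries. RPS6KA5 stayed lowest with 0.0604 CPM per exon kb, a scale on which its 27.351 kb of annotated exons weigh heavily against 2.406 kb of coding sequence. MSK2 exceeded MSK1 on either scale in 15 of 15 libraries. The median ratio per coding kb was 30.7, with a range of 25.2 to 72.5 over the 14 libraries in which MSK1 had a count. Whether reads in introns were counted is not given in the sources used here. This bears most on RPS6KA2, whose gene spans 497.088 kb, and least on RPS6KA4, which spans 13.068 kb.

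**Figure D1:**
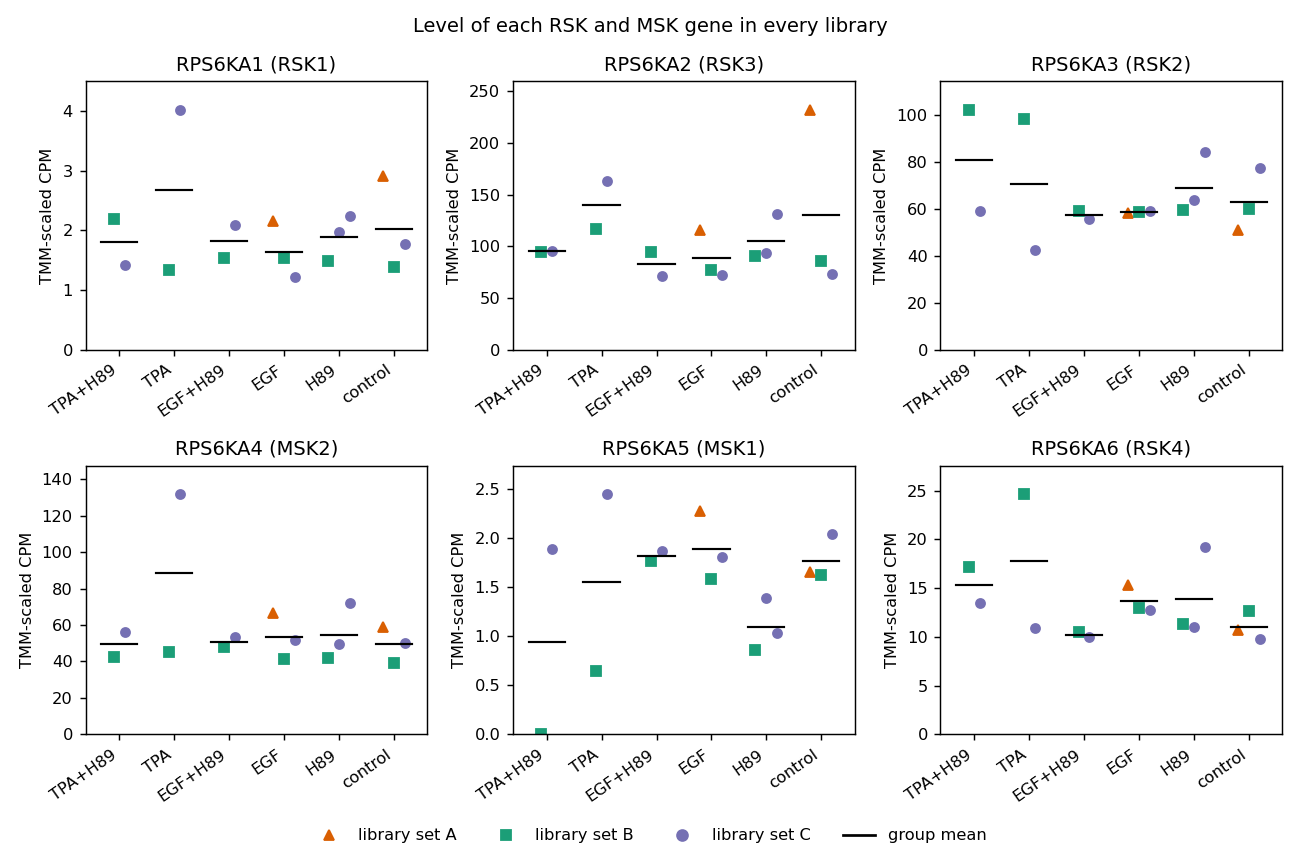
TMM-scaled CPM (linear axis from 0, a separate scale for each gene) of the 6 genes in every library, by treatment group. Points are libraries, shaped and coloured by library set, and bars are group means; the 2 TPA libraries lie far apart for RPS6KA3, RPS6KA4, RPS6KA5 and RPS6KA6, and RPS6KA2 in control 1 lies at 232 CPM.

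None of the 6 genes passed the test in any comparison. edgeR's quasi-likelihood test was fitted to all genes and all 15 libraries at once, and a call meant an adjusted p (Benjamini-Hochberg over 18575 genes) under 0.05. Over 10 comparisons this gave 60 values for the family, of which 0 were called, 0 had an unadjusted p under 0.05 and 60 had a 95% interval that included 0. DESeq2 also called 0. The lowest adjusted p was 0.383 and the largest change 0.97 on the log2 scale, in either direction. A single test of any difference among the 6 groups gave p between 0.327 for RPS6KA4 and 0.817 for RPS6KA5, where 0.183% of all genes were called. The intervals were wide, and for MSK1 they allowed changes of more than 2-fold either way in TPA and in EGF against control.

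In TPA-treated cells none of the 6 genes passed the test against control, where 0.415% of all genes were called (77 genes), and in none did the groups lie apart, as they did for 19.7% of all genes. The largest value was that of MSK2. RPS6KA4 had 45.0 and 132 CPM in TPA cells, against 59.1, 39.3 and 50.2 CPM in control cells. TPA 2 lay far above every control, while TPA 1 lay inside the control range, so the groups overlapped. The log2 fold change was 0.83 ± 0.39 (SE), with a 95% interval of -0.01 to 1.68, an unadjusted p of 0.0534 and an adjusted p of 0.383 by edgeR. RPS6KA4 gave 1.38 without TPA 1 and -0.13 without TPA 2, so that 1 library decided its value.

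RSK4 showed the opposite split. RPS6KA6 had 24.6 and 10.9 CPM in TPA cells, against 10.7, 12.7 and 9.81 CPM in control cells. Here TPA 1 was the high library and TPA 2 lay among the controls. The log2 fold change of RPS6KA6 was 0.68 ± 0.35, with an interval of -0.07 to 1.44 and an adjusted p of 0.411 by edgeR. It was 1.16 without TPA 2 and -0.05 without TPA 1.

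RPS6KA3, RPS6KA1 and RPS6KA5 also parted between the TPA libraries. RPS6KA3 (RSK2), mutated in Coffin-Lowry syndrome, had 98.2 and 42.5 CPM in TPA cells, against 51.0, 59.7 and 77.3 CPM in control cells. TPA 1 lay above and TPA 2 below all controls. RPS6KA1 (RSK1) had 1.33 and 4.02 CPM in TPA cells, against 2.91, 1.38 and 1.77 CPM in control cells, with the order of the TPA libraries turned round. Their log2 fold changes were 0.17 ± 0.34 for RPS6KA3 and 0.41 ± 0.50 for RPS6KA1, and both changed sign when 1 TPA library was left out. RPS6KA3 gave -0.58 without TPA 1 and RPS6KA1 gave -0.60 without TPA 2. Within library set B, the TPA minus control difference was 0.72 log2 for RPS6KA3 and 0.96 for RPS6KA6, against -0.86 and 0.16 within set C. For RPS6KA4 it was 0.20 within set B and 1.39 within set C, and for RPS6KA1 -0.05 within set B and 1.16 within set C. RPS6KA5 (MSK1) had 0.651 and 2.45 CPM in TPA cells, against 1.65, 1.62 and 2.04 CPM in control cells. Its log2 fold change was -0.18 ± 0.77, with -1.26 within set B and 0.26 within set C. The set B differences also run with the lower ribosomal RNA share of TPA 1.

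RPS6KA2 (RSK3) was the one member for which both TPA libraries departed upwards from the median of all libraries. It had 117 and 163 CPM in TPA cells, against 232, 86.1 and 73.8 CPM in control cells. Both TPA libraries exceeded controls 2 and 3 and lay under control 1. The difference was 0.44 log2 within library set B and 1.14 within set C, while the fit over all libraries gave 0.10 ± 0.43 (adjusted p 0.937 by edgeR). With a term for library set the value was 0.65 (adjusted p 0.269).

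TPA 1 and TPA 2 departed from the other libraries in opposite ways that ran with the base composition of transcripts. Each departure is the log2 CPM of the library minus the median over all 15. In TPA 1 it was 0.96 for RPS6KA6 and 0.73 for RPS6KA3, whose longest transcripts have GC contents of 34.4% and 40.04%, and -0.16 for RPS6KA4 at 64.7%. In TPA 2 it was 1.39 for RPS6KA4 and 1.16 for RPS6KA1 at 57.9%, against -0.21 for RPS6KA6 and -0.48 for RPS6KA3. RPS6KA5, at 38.3% GC, did not follow this order, with -1.29 in TPA 1 and 0.56 in TPA 2. RPS6KA2, at 54.2% GC, departed upwards in both, with 0.31 in TPA 1 and 0.79 in TPA 2. Over 15373 tested genes with a known GC content, Spearman's rho between departure and GC was -0.318 in TPA 1 and 0.431 in TPA 2, given as a description across genes, which are not independent replicates. It was 0.411 in control 1 and between -0.271 and 0.172 in the other libraries. The part of base composition in the TPA values of the family was not tested.

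**Figure D2:**
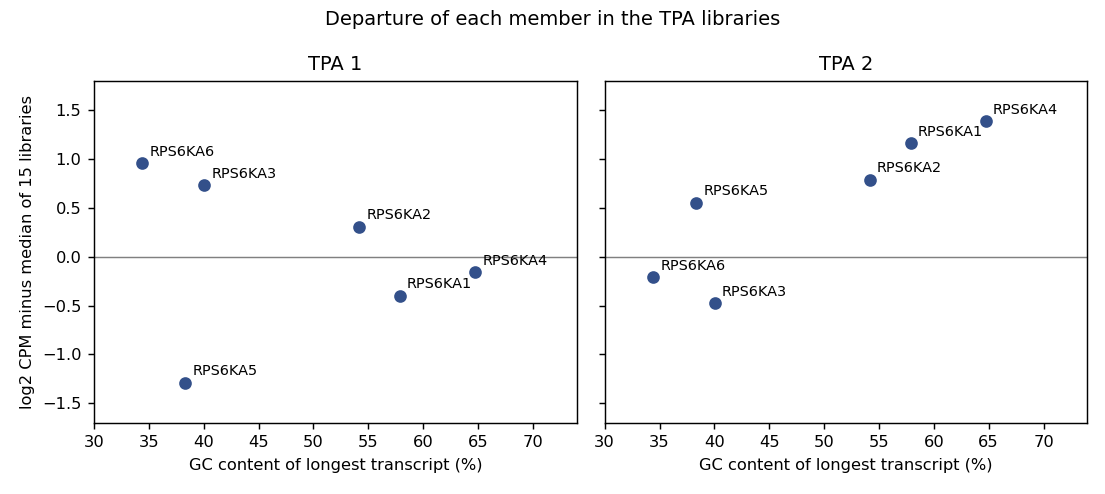
Departure of each gene in TPA 1 (left) and TPA 2 (right), as log2 CPM minus the median of 15 libraries, against the GC content in percent of its longest annotated transcript. Points are genes. RPS6KA6 and RPS6KA3 are high in TPA 1 (0.96 and 0.73) and RPS6KA4 and RPS6KA1 are high in TPA 2 (1.39 and 1.16). RPS6KA5 lies off either trend, and RPS6KA2 lies above 0 in both libraries (0.31 and 0.79).

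With a term for library set in the model, RPS6KA4 in TPA against control had a log2 fold change of 0.90 (unadjusted p 0.008, adjusted p 0.136), and 1.25% of all genes were called. In that model 0 of the 60 values of the family were called and 6 had an unadjusted p under 0.05. These lay in TPA against control, TPA against EGF, TPA+H89 against TPA and the test of whether H89 altered the TPA response. Of 18575 genes, 3347, 3412, 2484 and 1449 were under that level there, in that order. The lowest adjusted p in that model, 0.108 by edgeR, was that of RPS6KA2 in TPA against EGF, where 0.334% of all genes were called. Any difference among groups was called for 1.01% of all genes. Without control 1 and EGF 1, the libraries of set A, and TPA 2, the deepest library, the RPS6KA4 value was 0.01 and the RPS6KA6 value 1.14. These 3 are called below the libraries that stood apart. Their omission left TPA 1 as the only TPA library.

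In EGF-treated cells none of the 6 genes passed the test against control, where 0.0269% of all genes were called (5 genes). RPS6KA6 (RSK4) was the member whose groups did not overlap, as happened for 4.95% of all genes. It had 15.3, 12.98 and 12.7 CPM in EGF cells, against 10.7, 12.7 and 9.81 CPM in control cells. The lowest EGF library and the highest control were nearly level. Its log2 fold change was 0.31 ± 0.32, with an interval of -0.37 to 0.99 and an unadjusted p of 0.345 by edgeR. Within sets A, B and C the difference was 0.52, 0.04 and 0.38 log2.

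The other RSK genes and both MSK genes overlapped between EGF and control. RPS6KA4 had 66.8, 41.6 and 51.7 CPM in EGF cells, against 59.1, 39.3 and 50.2 CPM in control cells, each EGF library lying close to the control of its own set. RPS6KA5 (MSK1) had 2.27, 1.59 and 1.81 CPM in EGF cells, against 1.65, 1.62 and 2.04 CPM in control cells. The log2 fold changes were 0.11 ± 0.36 for RPS6KA4, with an interval of -0.66 to 0.88, and 0.09 ± 0.69 for RPS6KA5, with an interval of -1.40 to 1.59. RPS6KA3 had 58.1, 58.6 and 58.8 CPM in EGF cells, against 51.0, 59.7 and 77.3 CPM in control cells, so that the EGF libraries lay closer to each other than the controls did. RPS6KA2 had the lowest value, -0.56 ± 0.39, which was 0.17 without control 1, the library at 232 CPM.

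With H89 alone none of the 6 genes passed the test against control, where 0% of all genes were called. MSK1 was the member with non-overlapping groups, as happened for 7.10% of all genes. RPS6KA5 had 0.861, 1.39 and 1.03 CPM in H89 cells, against 1.65, 1.62 and 2.04 CPM in control cells, or 22, 88 and 73 counts against 76, 27 and 82 counts. Every H89 library lay below every control. The group means were 1.10 ± 0.272 CPM in H89 cells and 1.77 ± 0.235 CPM in control cells (SD, n = 3 each). The log2 fold change was -0.69 ± 0.70, with an interval of -2.19 to 0.82 and an unadjusted p of 0.341 by edgeR. It stayed between -0.90 and -0.55 under every alternative setting and omission tried. In sets B and C the difference was -0.88 and -0.75 log2.

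MSK2 and the RSK genes overlapped between H89 and control. RPS6KA4 had 41.7, 49.4 and 72.0 CPM in H89 cells, against 59.1, 39.3 and 50.2 CPM in control cells, with H89 3 the highest of these libraries. Its log2 fold change was 0.13 ± 0.36. For the RSK genes the values lay between -0.31 ± 0.39 for RPS6KA2 and 0.33 ± 0.32 for RPS6KA6, which reached 19.3 CPM in H89 3 and stayed at 11.3 and 10.99 CPM in H89 1 and H89 2.

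**Figure D3:**
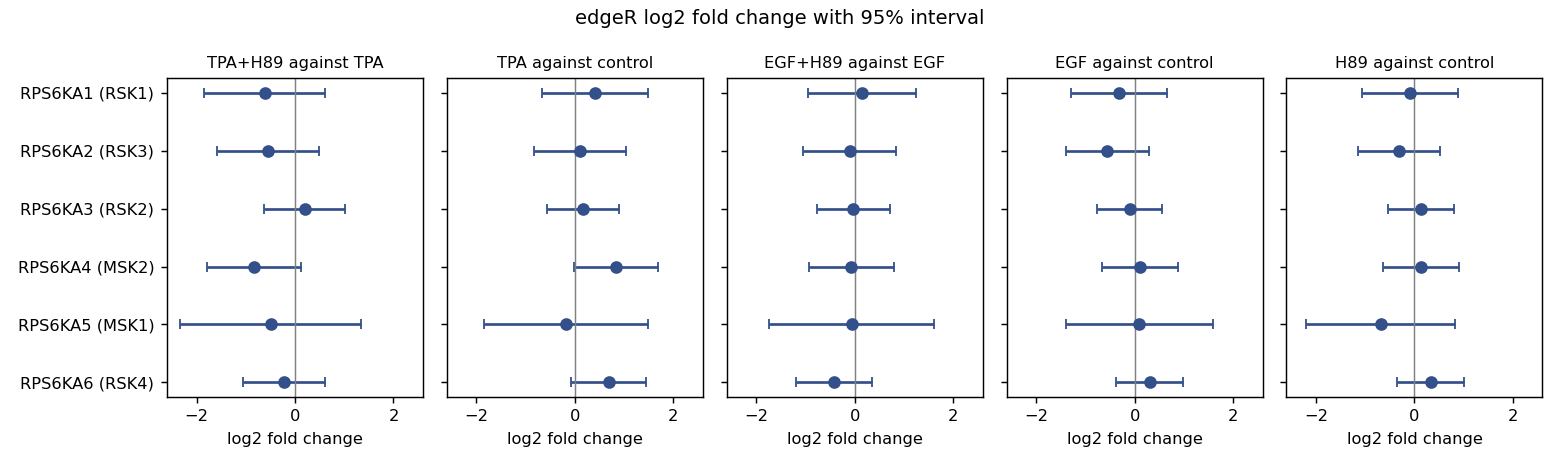
edgeR log2 fold change (horizontal axis) of each gene in 5 comparisons, with the 95% interval as bars. All intervals shown include 0; they are widest for RPS6KA5, the gene with the lowest median level.

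When H89 preceded EGF, none of the 6 genes passed the test against EGF alone, where 0% of all genes were called. RPS6KA6 did not overlap, as for 17.7% of all genes. It had 10.5 and 9.96 CPM in EGF+H89 cells, against 15.3, 12.98 and 12.7 CPM in EGF cells. Both libraries with H89 thus lay at the level of the controls. The log2 fold change was -0.42 ± 0.36, with an interval of -1.19 to 0.35 and an unadjusted p of 0.262 by edgeR, and the difference was -0.30 within set B and -0.35 within set C. RPS6KA5 had 1.76 and 1.87 CPM in EGF+H89 cells, inside the EGF range, with a log2 fold change of -0.06 ± 0.77. RPS6KA4 had 48.2 and 53.3 CPM in EGF+H89 cells, also inside the EGF range, with -0.07 ± 0.40.

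Against H89 alone, EGF+H89 gave no call in the family, where 0.0269% of all genes were called. RPS6KA3 and RPS6KA6 lay below H89 and RPS6KA5 lay above it with no overlap, as for 22.6% of all genes. The RPS6KA5 libraries had 1.76 and 1.87 CPM in EGF+H89 cells, against 0.861, 1.39 and 1.03 CPM in H89 cells, a log2 fold change of 0.72 ± 0.77 with an interval of -0.93 to 2.38. The test of whether H89 altered the EGF response, an interaction, called 0 of the 6 genes and 0% of all genes. Its largest value was that of RPS6KA6, -0.74 ± 0.48 (unadjusted p 0.142).

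When H89 preceded TPA, none of the 6 genes passed the test against TPA alone, where 0% of all genes were called. That share was above 0% in the fit without TPA 1, which left TPA 2, the deepest library, as the only TPA library. None of the family was called there. RPS6KA4 had 42.5 and 56.3 CPM in TPA+H89 cells, against 45.0 and 132 CPM in TPA cells. The lower TPA library lay between the TPA+H89 libraries. The log2 fold change was -0.84 ± 0.44, with an interval of -1.79 to 0.11 and an adjusted p of 0.739 by edgeR, and it was -0.08 within set B and -1.22 within set C. Without control 1, EGF 1 and TPA 2 it was 0.14. RPS6KA2 lay below TPA with no overlap, as for 21.6% of all genes, at 94.6 and 95.9 CPM in TPA+H89 cells, against 117 and 163 CPM in TPA cells (-0.56 ± 0.48, adjusted p 0.884 by edgeR).

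MSK1 could hardly be compared between these groups. RPS6KA5 had 0 and 147 counts in TPA+H89 cells, against 21 and 296 counts in TPA cells, which is 0 and 1.89 CPM against 0.651 and 2.45 CPM. TPA+H89 1 was the shallowest library, and 3 counts in it would have been 0.547 CPM, a value below the 0.651 CPM of TPA 1. The part of depth in the 0 was not tested. The log2 fold change was -0.49 ± 0.85, with an interval of -2.34 to 1.35. The interaction of H89 with TPA called 0 of the 6 genes and 0% of all genes. Its largest value was that of RPS6KA4, -0.97 ± 0.56, with an interval of -2.19 to 0.25. Against H89 alone, where 0.0969% of all genes were called, TPA+H89 gave log2 fold changes from -0.14 for RPS6KA2 to 0.22 for RPS6KA3. TPA against EGF called 0 of the 6 genes and 0% of all genes, and RPS6KA4 had 0.73 ± 0.39. In that comparison RPS6KA2 was the member with TPA above EGF in every library, as for 20.8% of all genes apart in either direction. Without TPA 1, which left TPA 2 as the only TPA library, genes outside the family were called in TPA against EGF and in the interaction.

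Over the 8 comparisons between pairs of groups, 8 of 48 gene values had groups that did not overlap, with 3 above and 5 below. RPS6KA6 accounted for 3 of them, RPS6KA2 for 2, RPS6KA5 for 2 and RPS6KA3 for 1, while RPS6KA1 and RPS6KA4 overlapped in all 8. Many of these comparisons share libraries, so their values are not independent. The share of the family that lay apart, 16.7%, was close to the 16.9% of all gene values in the same 8 comparisons.

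The share of MSK1 in the counts of both MSK genes compares MSK1 with MSK2 inside each library and does not depend on scaling. It was 0% and 3.24% in TPA+H89 cells, 1.42% and 1.82% in TPA cells, 3.53% and 3.39% in EGF+H89 cells and 3.29%, 3.68% and 3.38% in EGF cells. In H89 cells it was 2.03%, 2.74% and 1.41%, and in control cells 2.72%, 3.96% and 3.91%. Both TPA libraries lay below all 3 controls, as did H89 1 and H89 3, while every EGF and EGF+H89 library lay inside the control range. The exact 95% binomial intervals were 0.884% to 2.17% in TPA 1 and 1.62% to 2.04% in TPA 2, and 2.15% to 3.39% in control 1, the control with the lowest share. In TPA 1 MSK1 was low, and in TPA 2 MSK2 was high. For the 0 of TPA+H89 1 the exact interval reached 1.57%, and 3 counts of the total would be 1.29%. The intervals and limits cover counting error only. Single genes lay apart between TPA and control for 19.7% of all genes, and no such background was computed for a share of 2 genes. RPS6KA5 has a GC content of 38.3% and RPS6KA4 of 64.7%, and the part of base composition in the share was not tested.

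**Figure D4:**
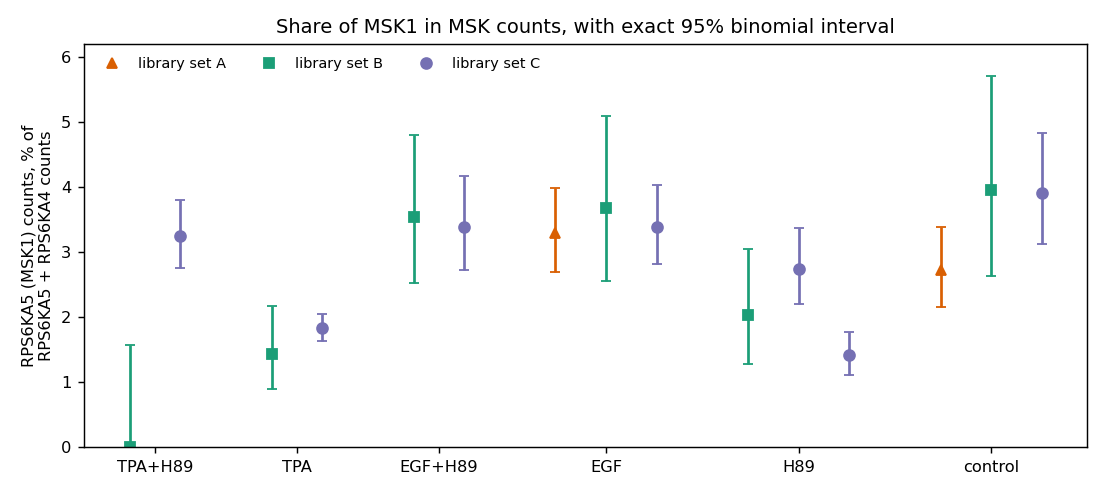
RPS6KA5 (MSK1) counts as a percentage of RPS6KA5 plus RPS6KA4 (MSK2) counts in every library, with exact 95% binomial intervals, by group and library set. The TPA libraries lie at 1.42% and 1.82%, and the controls between 2.72% and 3.96%.

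The genes whose levels moved most like each member were named by Pearson's r of log2 CPM over the 15 libraries after the mean of each library set was removed, among 13458 genes at 1 CPM or more on average. For RPS6KA4 they were ASPSCR1 (r = 0.982), WDR34 (0.981) and IRAK1 (0.979). For RPS6KA5 they were SEMA4A (0.978), B9D2 (0.978) and CCDC88B (0.970), an order that rested on the library in which RPS6KA5 had no count. Without TPA+H89 1 these values were 0.792, 0.815 and 0.784, and the nearest of them came 35th among all genes. RPS6KA2 went with SCARB1 (0.984), RPS6KA3 with MOB1B (0.963), RPS6KA6 with TGFBR1 (0.952) and RPS6KA1 with DECR2 (0.899). Among the members, RPS6KA1 went with RPS6KA4 (0.733), and RPS6KA2 went with RPS6KA4 (0.681) and with RPS6KA1 (0.644). RPS6KA3 went with RPS6KA6 (0.702), while RPS6KA3 and RPS6KA5 ran against each other (-0.664). The 2 MSK genes had r = 0.074. Without TPA 2 the value for RPS6KA1 and RPS6KA4 was 0.185, that for RPS6KA2 and RPS6KA4 0.429 and that for RPS6KA1 and RPS6KA2 0.376. These values are descriptions over 15 libraries that also differ in depth and in how levels run with base composition.

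Genes around the family in its pathway were read from lists written with earlier results of these data known. Calls within the lists are therefore descriptions and not an independent test. Upstream kinases, from EGFR and RAS to ERK, p38 and protein kinase C, numbered 21. In TPA against control 1 of them was called and the list's median log2 fold change was 0.24, against -0.02 over all genes tested. MAP2K3, which encodes the kinase MKK3 that activates p38, was that gene. It had 36.6 and 44.1 CPM in TPA cells, against 11.3, 8.94 and 11.5 CPM in control cells. Both TPA libraries exceeded every control by a wide margin, and MAP2K3 rose by 1.93 ± 0.31 on the log2 scale (adjusted p 0.0201 by edgeR), with 2.03 within set B and 1.94 within set C.

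MAP2K3 stood at 31.9 and 28.7 CPM in TPA+H89 cells, below both TPA libraries and above every control. EGF cells had 13.8, 22.9 and 21.5 CPM and H89 cells 10.3, 12.1 and 20.6 CPM of MAP2K3. In EGF against control the value was 0.88 ± 0.28 and did not pass the test. The call of MAP2K3 in TPA was lost without control 1 (adjusted p 0.0611), control 2 (0.161), control 3 (0.0798) or TPA 2 (0.188), without the 3 libraries that stood apart (0.0827) and in a fit of the TPA and control libraries alone (0.353). MAPK11, one of the p38 kinases, had -0.55 in TPA against control and was not called.

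Genes of other kinases that H89 acts on, listed together with the regulatory subunits of protein kinase A, numbered 10. The kinases included the catalytic subunits of protein kinase A, AKT1 and both ROCK kinases. None of the 10 was called in TPA, EGF or H89 against control, and the list medians were 0.34, 0.00 and 0.22. The 4 related ribosomal S6 kinases, which include the S6 kinase gene RPS6KB1, had 0 calls in these comparisons and medians of 0.11, 0.24 and 0.08. Of 16 substrates and partners of MSK and RSK, 15 were tested and 0 were called, with medians of 0.55 in TPA, -0.05 in EGF and 0.09 in H89. At the extremes in TPA against control stood H3F3B, which encodes histone H3.3, with 1.24 ± 0.33 (adjusted p 0.185), and DAPK1, a death-associated kinase, with -1.15 ± 0.43 (adjusted p 0.308). H3F3B had 525 and 486 CPM in TPA cells, against 125, 242 and 276 CPM in control cells, so these groups did not overlap although the test was not passed.

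The 15 readers and coactivators at phosphorylated histone H3, among them the 14-3-3 genes and the acetyltransferase genes EP300 and CREBBP, had 0 calls and medians of 0.47 in TPA, -0.05 in EGF and 0.08 in H89. The highest in TPA was YWHAG, a 14-3-3 gene, with 1.06 ± 0.37 (adjusted p 0.284), and the lowest KAT5, an acetyltransferase gene, with -0.60 ± 0.45. All-gene medians were -0.02 in TPA, 0.02 in EGF and -0.05 in H89.

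The mitogen-induced readouts linked to MSK, such as EGR1, NR4A1 and DUSP1, moved in the same libraries in which the kinase genes were not called. In TPA against control 8 of 11 were called, against 0.415% of all genes, with a list median of 4.60 and all 11 values above 0. MCL1, a survival gene of the BCL2 family, had 885 and 1433 CPM in TPA cells, against 222, 201 and 320 CPM in control cells, and rose by 2.23 ± 0.31 on the log2 scale (adjusted p 0.00853 by edgeR). MCL1 lost its call without control 2 (adjusted p 0.108) or TPA 2 (0.101) and without the 3 libraries that stood apart (0.0742). NR4A1 rose by 5.73 (adjusted p 0.00817 by edgeR) and lost its call without control 3 (0.0522). It also lost it without TPA 2, which left TPA 1 as the only TPA library. DUSP1, a phosphatase of MAP kinases, and ATF3 kept their calls under every single omission. In a fit of the TPA and control libraries alone 0 genes were called, these included.

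In EGF against control 1 of the 11 readouts was called, against 0.0269% of all genes, with a median of 2.91 and all 11 values above 0. That gene was ATF3, a stress-responsive transcription factor, which rose by 3.27 ± 0.45 (adjusted p 0.0242 by edgeR), a call lost without the 3 libraries that stood apart (0.0526) and in a fit of the compared groups alone (0.674). It was also lost without EGF 2 or any one control, H89 or EGF+H89 library (adjusted p 0.0509 to 0.339). With H89 alone 0 of 11 were called, with a median of -0.13. In TPA+H89 against TPA 0 of 11 were called, the median was -1.13 and 10 of 11 values were below 0. In EGF+H89 against EGF 0 of 11 were called and the median was -0.35. In TPA+H89 against H89 2 of 11 were called, against 0.0969% of all genes, with a median of 3.15 and all 11 values above 0. NR4A1 rose by 5.49 ± 0.77 (adjusted p 0.0220 by edgeR) and ATF3 by 3.15 ± 0.47 (adjusted p 0.0257). Both calls were lost when any one H89 library was left out (adjusted p 0.0843 to 0.191). They were also lost without EGF+H89 1 or TPA+H89 2, each omission leaving 1 library in its group. ATF3 was also lost without EGF+H89 2 (0.0553) and with the compared groups alone (0.0657). In EGF+H89 against H89 0 of 11 were called, with a median of 2.43 and all 11 values above 0. With a term for library set the calls numbered 11 of 11 in TPA and 7 of 11 in EGF against control, 10 of 11 in TPA+H89 against H89, 6 of 11 in EGF+H89 against H89 and 3 of 11 in TPA against EGF. They numbered 0 of 11 in H89 against control and in each mitogen with H89 against that mitogen. Of all genes, the fit with that term called 1.25% in TPA and 0.221% in EGF against control. It called 0.431% in TPA+H89 against H89, 0.269% in EGF+H89 against H89 and 0.334% in TPA against EGF. The comparisons with control share its libraries, and so do those with H89 or TPA.

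**Figure D5:**
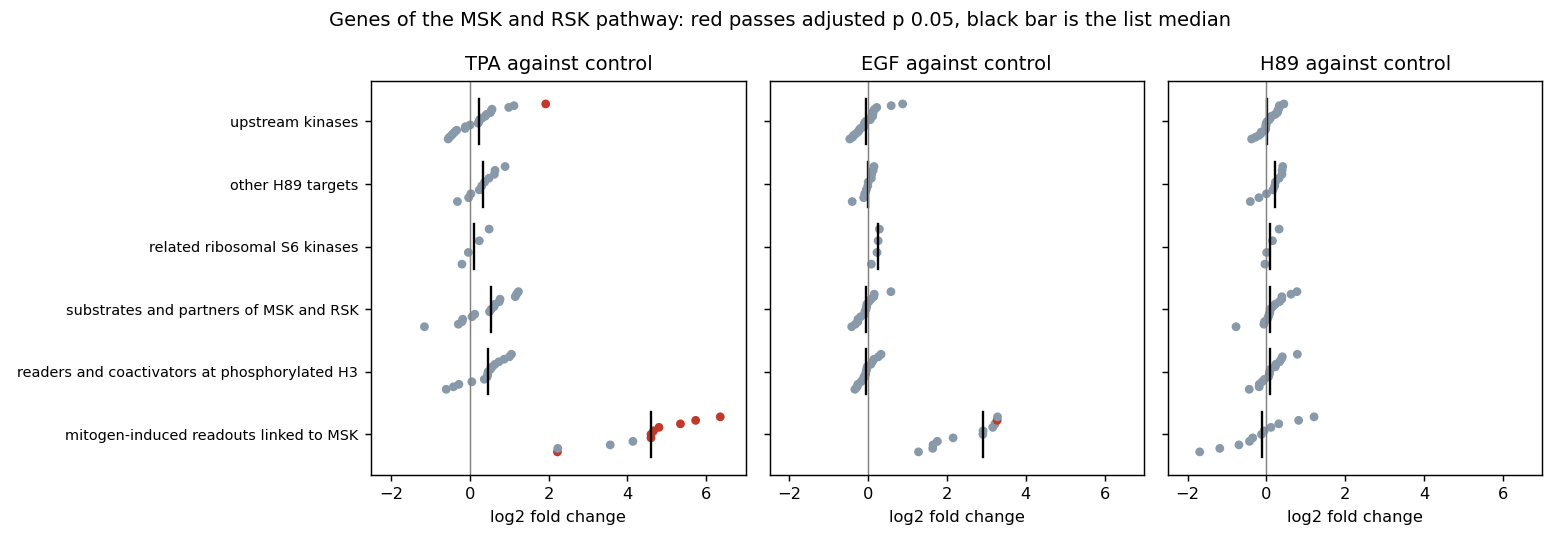
Log2 fold change (horizontal axis) of each tested gene in the 6 pathway lists for TPA, EGF and H89 against control. Points are genes, red where the adjusted p is under 0.05, and black bars are list medians; the readouts lie at a median of 4.60 in TPA and 2.91 in EGF, and the medians of the other lists lie between 0.11 and 0.55 in TPA, with MAP2K3 the one red point among them at 1.93.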

How the data were processed

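Values are the deposited raw counts of reads per gene symbol, which the authors made for 16 samples. Per the labels' protocols the RNA was ribosome-depleted and the libraries strand-specific. HOMER, hg19 and GRCh37 appear in the submitters' processing notes, and the aligner is not given in the sources used here. Groups came from the labels, and the identical control copies were counted once. Genes passing edgeR's filterByExpr (smallest count 10) were scaled by TMM and fitted by edgeR 4.0.16's quasi-likelihood test in R 4.3.3, with all 15 libraries and a term per group, with Benjamini-Hochberg adjustment over 18575 genes and a threshold of 0.05. SE and 95% intervals come from that test. Log2 CPM used a prior count of 2. Library sets were read from the counts. Total counts per library, the depth, limit the precision of low genes such as RPS6KA5.

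The named genes were all 6 members, the 3 genes most like each, and in each pathway list up to 4 called genes by adjusted p, or the extremes where none was called. The members and lists were chosen with earlier results of these data known. Lengths and GC content came from GENCODE v29 and promoters from RefSeq. Their build differs from that of the counts, so genes were joined by symbol. Alternatives were DESeq2 1.42.0, its size factors, other filters, the compared groups alone, a library set term, both control copies, and omissions of libraries. The scripts were tested on simulated data.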

Additional observations from a re-analysis of the deposited data

How the results depend on the processing

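Over 23 alternative settings, 15 of them single omissions, 0 of the 6 members were called in any comparison. Of 1380 refitted member values, 99 changed sign and 66 moved by over 1 SE. Fits in which TPA+H89 1 was the lone TPA+H89 library gave RPS6KA5 a group with no count, so its value there is no bound, and a lone library is assumed to vary like the other groups.

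Counts over all genes depended on the fit. EGF against control had 5 calls, against 62 by DESeq2, 41 with the library set term, 23 without the 3 libraries apart, 11 with both control copies, 0 with the compared groups alone and 0 to 10 on single omissions. TPA against control had 77, against 524, 233, 46, 157 and 0 under these settings in that order and 13 to 1187 on omissions. EGF+H89 against H89 had 5, against 55 by DESeq2, 50 with the set term, 45 without the 3 libraries, 49 with the compared groups alone, 9 with no filter and 0 to 9 on omissions. TPA+H89 against H89 had 18, against 84, 80 and 79 in the first 3 of these and 0 to 28 on omissions. Any difference had 34, against 413, 188, 69, 94 with both copies and 16 to 232. Main counts of 0 came with 608 genes at unadjusted p under 0.05 for H89 against control, 310 for EGF+H89 against EGF, 1300 for TPA+H89 against TPA and 2480 for TPA against EGF; DESeq2 called 3, 1, 9 and 300. Without TPA 1, which left TPA 2 as the only TPA library, genes were called in TPA+H89 against TPA, TPA against EGF and the H89 by TPA interaction. With the set term TPA against EGF had 62. The ranges on omissions include fits that leave 1 library in a group. The causes were not tested.

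The likeness between genes was recomputed without each library, an alternative chosen after seeing the data. No paired analysis was possible because the labels give each sample a running number of its own and no replicate number that groups share. The library set term is a block read from the counts, not a pairing of replicates.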
